A study of Ovis aries with 6 samples.

Results

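The hormone receptors described here are those that read the signals of the pituitary gland in peripheral tissues: the prolactin receptor PRLR, the growth hormone receptor GHR, the luteinizing hormone receptor LHR (also called LHCGR), the follicle-stimulating hormone receptor FSHR, the thyrotropin receptor TSHR, the oxytocin receptor OXTR, the corticotropin receptor MC2R and the vasopressin receptor AVPR1A. They were chosen by name from the full gene table, with the low lamb values of PRLR and LHR already known, so the stage differences of the receptors are given as a description, without a test. Of the 8 names, 7 stood among the 24390 genes of the table. No row carried the name MC2R, which is not analysed here.

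RNA was sequenced from the fat that surrounds the kidney (perirenal adipose tissue) in untreated wild-type Merino sheep of 2 stages. There were 3 lambs, whose age the labels give as 80 days after birth, as 89 ± 7 days and as 12 weeks, and 3 fetuses taken 132 days after conception, where term is 150 ± 3 days. Every library is from its own animal, which gives n = 3 in each stage. Lamb titles also hold the letters VEH, which the sources used here leave unexplained, and anything the letters stand for cannot be told apart from stage.

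Receptors for prolactin and growth hormone are single-pass membrane proteins of the cytokine receptor family. Ligand binding activates the kinase JAK2 and through it the transcription factors STAT5A and STAT5B, and in fat growth hormone promotes the release of fatty acids. The gonadotropin and thyrotropin receptors are a family of 7-pass proteins with a large hormone-binding outer domain that signal mainly through Gs and cyclic AMP, while the oxytocin receptor and the V1a vasopressin receptor signal mainly through Gq and phospholipase C. In sheep the perirenal store is a heat-producing brown-type fat around birth and becomes white fat in the weeks that follow.

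The libraries held 15907128 to 19150428 counts, with at least 1 count for 16345 to 16907 genes. Mitochondrial genes took 8.02%, 7.37% and 8.29% of counts in the lamb libraries, against 34.5%, 40.7% and 27.5% in the fetal libraries, and the TMM scaling factors were 1.16 to 1.21 in lambs and 0.723 to 0.956 in fetuses. Levels are given as CPM, each count set against its TMM-scaled library, which allow comparison of 1 gene between libraries but not of different genes. Differences are log2, lamb minus fetus, ± SE, from edgeR's quasi-likelihood fit over the 13624 genes that passed its filter on low counts. The median difference of all genes tested was -0.01. Adipocyte markers, 9 of them found, summed to 28262 to 38747 CPM in lambs, against 15174 to 19049 CPM in fetuses, so the labelled tissue had its defining transcripts in every library. ADIPOQ gave the largest share of the sum. By edgeR's test at an adjusted p under 0.05, 6 of the 9 were higher and 1 lower in lambs, beside 22% and 22.7% of all genes. PLIN1 and CIDEA did not pass. The lower marker was UCP1, at 476 ± 77.2 CPM in lambs and 1633 ± 530 CPM in fetuses (log2 difference -1.78 ± 0.27, adjusted p = 0.00154).

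Of the 7 receptors, 5 passed the filter, and FSHR and TSHR did not. In fetuses PRLR, GHR and LHR carried most of the receptor counts, whereas in lambs GHR alone carried 98.8% of them on average. OXTR and AVPR1A stood at 7.28 CPM or less in every library, and FSHR and TSHR had at most 4 counts in a library. The stages did not overlap for PRLR, LHR and AVPR1A, which were lower in lambs, or for GHR, which was higher in lambs. Among all genes tested, 57.7% did not overlap between the stages, 29.5% lower and 28.2% higher in lambs. The receptors were picked on this contrast, so nothing is read from these counts and no test call is given for them. As background for the gene lists described later, edgeR's quasi-likelihood test called 44.7% of all genes tested at an adjusted p under 0.05, 22.7% lower and 22% higher in lambs. With library totals alone as the scale, 79.3% of called genes were higher in lambs, against 49.3% with TMM.

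**Figure D1:**
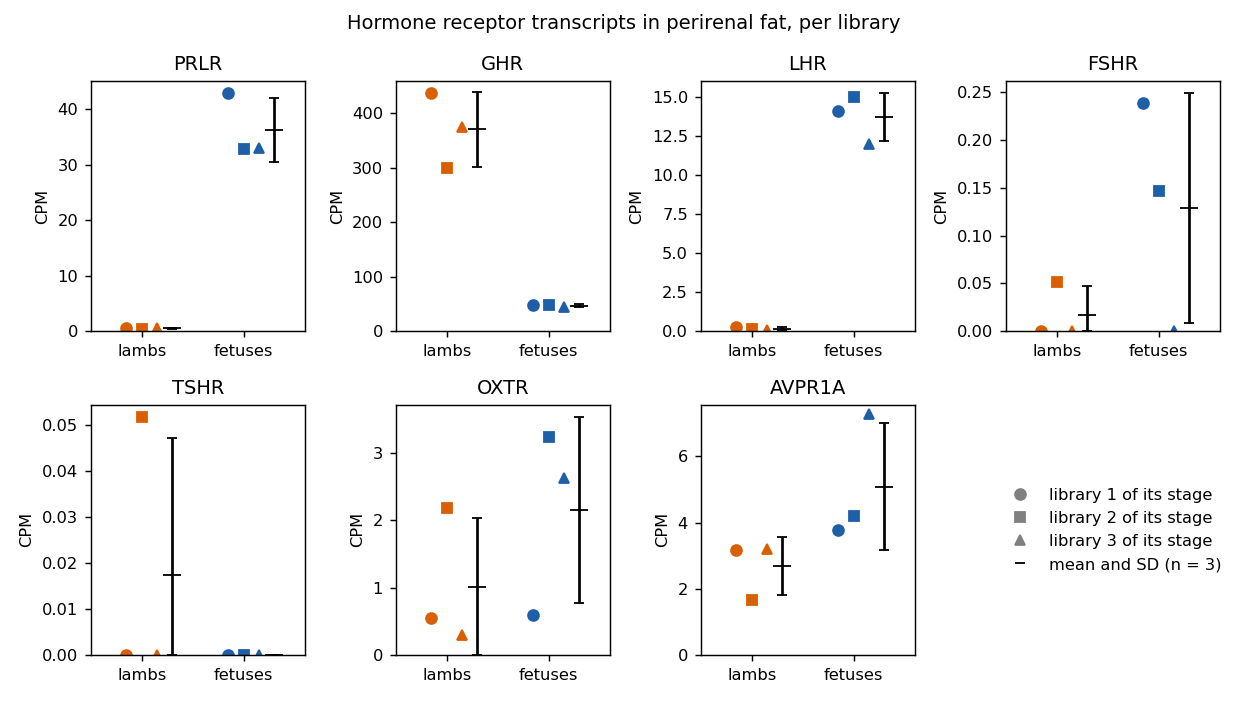
Level of each receptor (CPM, linear axes starting at 0, a separate scale for each panel) in the 3 lamb and the 3 fetal libraries; points are libraries and the bar with its whiskers is the mean ± SD, cut at 0 where the SD exceeds the mean. PRLR and LHR lie near 0 in every lamb, GHR lies above 299 CPM in every lamb and below 50 CPM in every fetus, and the OXTR libraries of the stages overlap.

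PRLR (ENSOARG00000011449, Oar v3.1 chromosome 16, 38969273 to 39028126) encodes the receptor for prolactin and for placental lactogen. It had 13, 7 and 11 counts in the lamb libraries, against 719, 447 and 554 counts in the fetal libraries. In CPM these were 0.642, 0.363 and 0.5498 in lambs, and 43.0, 32.9 and 33.1 in fetuses. All 3 lambs were low and all 3 fetuses high, and the lowest fetal level was far above the highest lamb level. The mean was 0.518 ± 0.142 CPM in lambs and 36.3 ± 5.78 CPM in fetuses (SD, n = 3 each), a log2 difference of -6.11 ± 0.23, which is a level 68.9-fold higher in fetuses. Of the 13624 genes tested, 38 had a more negative difference. PRLR was chosen for its fall, so nothing is read from this rank. The highest library was 1.77 times the lowest in lambs and 1.31 times the lowest in fetuses.

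In whole tissue, fewer cells of a type and less RNA per cell cannot be told apart, and this holds for every receptor here. The lamb counts of PRLR were above 0 in each library, and their sum of 31 has a 95% exact Poisson interval of 21.1 to 44.0 counts, so the lamb level was low but detected. Intervals on counts cover counting error only.

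GHR (ENSOARG00000008837, chromosome 16, 31832933 to 32000445) encodes the growth hormone receptor, whose shed outer domain also circulates as a growth hormone binding protein. The lamb libraries had 8861, 5773 and 7490 counts, and the fetal libraries 819, 646 and 750. The levels were 438, 299.6 and 374 CPM in lambs, against 49.0, 47.5 and 44.8 CPM in fetuses. The fetal libraries lay within 1.09-fold of each other and the lamb libraries within 1.46-fold, with no overlap. The mean was 371 ± 69.2 CPM in lambs and 47.1 ± 2.14 CPM in fetuses (SD, n = 3 each), a log2 difference of 2.98 ± 0.17, or 7.87-fold higher in lambs. A more positive difference was found for 170 genes.

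LHR (ENSOARG00000004455, chromosome 3, 75705738 to 75748262) encodes the receptor for luteinizing hormone, best known from gonads. It had 5, 3 and 1 counts in the lamb libraries, against 236, 204 and 201 counts in the fetal libraries. The levels were 0.247, 0.156 and 0.04998 CPM in lambs, and 14.1, 15.0 and 12.0 CPM in fetuses. The lambs were all near the limit of detection, since 3 counts correspond to 0.148 to 0.156 CPM there, while the fetuses were uniform, with the highest library at 1.25 times the lowest. The mean was 0.151 ± 0.0986 CPM in lambs and 13.7 ± 1.55 CPM in fetuses (SD, n = 3 each), and the log2 difference was -6.44 ± 0.36. The 9 lamb counts have a 95% exact Poisson interval of 4.12 to 17.1, so the size of this difference is known less well than that of PRLR. A more negative difference was found for 32 genes, a rank from which nothing is read, since LHR too was chosen for its fall.

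FSHR (ENSOARG00000004340, chromosome 3, 75276939 to 75471157), the receptor for follicle-stimulating hormone, lies 235 kb from LHR and had few counts. It had 0, 1 and 0 counts in lambs, against 4, 2 and 0 counts in fetuses. The count ratio of lambs to fetuses, corrected for library size, was 0.132, with a 95% exact interval of 0.00287 to 1.09 that covers counting error only, so a stage difference was not detectable at this depth. TSHR (ENSOARG00000002882, chromosome 7, 89258424 to 89431877), the receptor for thyrotropin, had 0, 1 and 0 counts in lambs and 0 counts in every fetal library. No fold is given for it, since both stages lie under 3 counts.

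OXTR (ENSOARG00000007492, chromosome 19, 17656099 to 17664613) encodes the oxytocin receptor. It had 11, 42 and 6 counts in lambs, against 10, 44 and 44 counts in fetuses, or 0.543, 2.18 and 0.2999 CPM in lambs and 0.598, 3.24 and 2.63 CPM in fetuses. Lamb library 2 was high among the lambs and fetal library 1 low among the fetuses, so that the stages overlapped. The spread within a stage, 7.27-fold in lambs and 5.41-fold in fetuses, was the widest of the 5 receptors that passed the filter. The means were 1.01 ± 1.02 CPM in lambs and 2.15 ± 1.38 CPM in fetuses (SD, n = 3 each), and the log2 difference of -1.09 ± 0.81 became -2.32 without lamb library 2, -1.54 without fetal library 1, -0.68 without fetal library 2 and -0.65 without lamb library 3.

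AVPR1A (ENSOARG00000004113, chromosome 3, 156234256 to 156237118) encodes the V1a vasopressin receptor. It had 64, 32 and 64 counts in lambs, against 63, 57 and 122 counts in fetuses. The levels were 3.16, 1.66 and 3.20 CPM in lambs, and 3.77, 4.19 and 7.28 CPM in fetuses. The groups were separated by less than 1 CPM, and fetal library 3 stood above the other fetuses. The means were 2.67 ± 0.878 CPM in lambs and 5.08 ± 1.92 CPM in fetuses (SD, n = 3 each). The log2 difference was -0.92 ± 0.36, and -0.57 without fetal library 3.

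**Figure D2:**
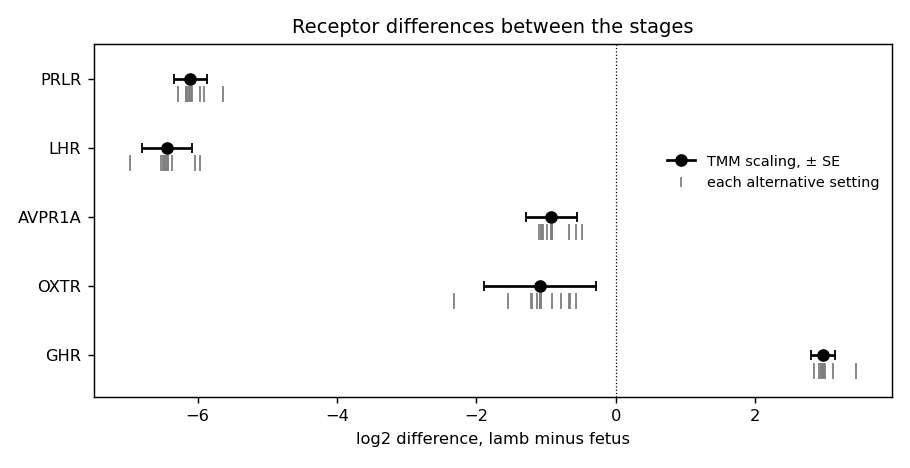
Log2 difference, lamb minus fetus, of each receptor that passed the filter on low counts (black point with ± SE), with its values under the other settings as grey ticks. GHR lies to the right of 0 at 2.98, PRLR and LHR lie left of -5.6 under every setting run, and OXTR and AVPR1A lie nearer to 0 with the widest relative scatter.

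The balance between the receptors differed between the stages as well. GHR made up 99.0%, 98.5% and 98.9% of all counts of the 7 receptors in the lamb libraries, against 44.2%, 46.1% and 44.9% in the fetal libraries. PRLR made up 0.145%, 0.119% and 0.145% in lambs, against 38.8%, 31.9% and 33.2% in fetuses. Within a library these shares do not depend on how libraries are scaled to each other. There were 682, 825 and 681 GHR counts for each PRLR count in the lambs, and 1.14, 1.45 and 1.35 in the fetuses, so the 2 cytokine receptors had counts of like size before birth and of very unlike size after it. The number of LHR counts for each PRLR count was 0.385, 0.429 and 0.0909 in lambs and 0.328, 0.456 and 0.363 in fetuses, ranges that overlapped except for lamb library 3 with its 1 LHR count.

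Between genes, levels can be compared only per length, for which the authors' mean RPKM per stage (reads set against the length of the gene and the size of the library) is used, with no SD. By mean RPKM the order in lambs was GHR at 221, TSHR at 12.1, AVPR1A at 1.83, FSHR at 1.56, OXTR at 1.19, PRLR at 0.910 and LHR at 0.352. In fetuses it was GHR at 20.2, PRLR at 19.2, LHR at 9.03, TSHR at 6.47, FSHR at 3.16, AVPR1A at 2.65 and OXTR at 2.15. GHR and PRLR were therefore adjacent in the fetal order, at a ratio of 1.05, whereas in lambs the ratio of GHR to PRLR was 243. Without values per library, neighbours in either order cannot be said to differ beyond their spread. Ranks by mean RPKM were taken among the genes with at least 1 count in the stage. GHR ranked 472 of 17540 in lambs and 3959 of 17730 in fetuses, and PRLR ranked 13726 in lambs and 4124 in fetuses.

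The RPKM of some genes does not match their counts. TSHR, with 1 count in the 6 libraries together, is the plainest case among the receptors, and FSHR, with 7 counts, is another, so their RPKM places in the order cannot be traced to the deposited counts. The table held 94 genes with a mean RPKM of at least 3 in a stage and at most 1 count in all. For the receptors with counts, RPKM gave smaller stage ratios at the low end: the level in fetuses was 21.0 times that in lambs for PRLR and 25.7 times for LHR by mean RPKM, against ratios of 70.0 and 90.8 by mean CPM. GHR was 10.98 times higher in lambs by mean RPKM and 7.87 times by mean CPM. The CPM are TMM-scaled and the RPKM are set against library size, so the scaling differs too. With library totals alone the log2 differences were 3.45 for GHR, -5.64 for PRLR and -5.96 for LHR. By mean RPKM the log2 ratios of lambs to fetuses were 3.46, -4.40 and -4.68.

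GHR and PRLR lie on the same chromosome, 6.97 Mb apart on Oar v3.1, with differences of opposite sign. Between them the table has 44 genes, of which 25 were tested. By edgeR's quasi-likelihood test with Benjamini-Hochberg adjustment, 6 of these rose in lambs, 4 fell and 15 did not pass, which is 40% called beside 44.7% of all genes. Their differences ran from -1.38 to 3.03 with a median of 0.15. AGXT2, a mitochondrial aminotransferase gene 21.9 kb beyond PRLR, fell with a log2 difference of -3.39 ± 0.49 (adjusted p = 0.00126, n = 3 per stage), to 0.366 ± 0.232 CPM in lambs, against 3.92 ± 0.744 CPM in fetuses. SPEF2, a sperm flagellum gene 481 kb on the other side, had a difference of 0.74 ± 0.55 (adjusted p = 0.306) and did not pass.

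LHR and FSHR are on the same chromosome, and the 1 gene between them, known by identifier only, rose slightly, by 0.63 ± 0.14 (adjusted p = 0.00870). The gene on the other side of LHR, at 7.23 kb, had a difference of -0.24 ± 0.29 (adjusted p = 0.520). Next to GHR, CCDC152 was below the filter and FBXO4, a ubiquitin ligase subunit gene, had a difference of 0.10 ± 0.21 (adjusted p = 0.724). SEPP1, which encodes selenoprotein P and is the nearest tested gene on the CCDC152 side, was named after its value was seen and rose by 2.40 ± 0.27. Around AVPR1A, TMEM5 rose by 0.70 ± 0.13 (adjusted p = 0.00367) and PPM1H, a protein phosphatase gene, fell by 1.16 ± 0.23 on the log2 scale (adjusted p = 0.00562). Beside OXTR, RAD18, a DNA repair gene, rose by 0.70 ± 0.21 (adjusted p = 0.0297), and beside TSHR, CEP128 and GTF2A1 had differences of 0.25 ± 0.23 and 0.33 ± 0.19 that did not pass. None of the tested genes next to PRLR or LHR had a difference as large as that of its receptor. Both receptors were picked for their large falls, which made this likely beforehand, so nothing is read from it.

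**Figure D3:**
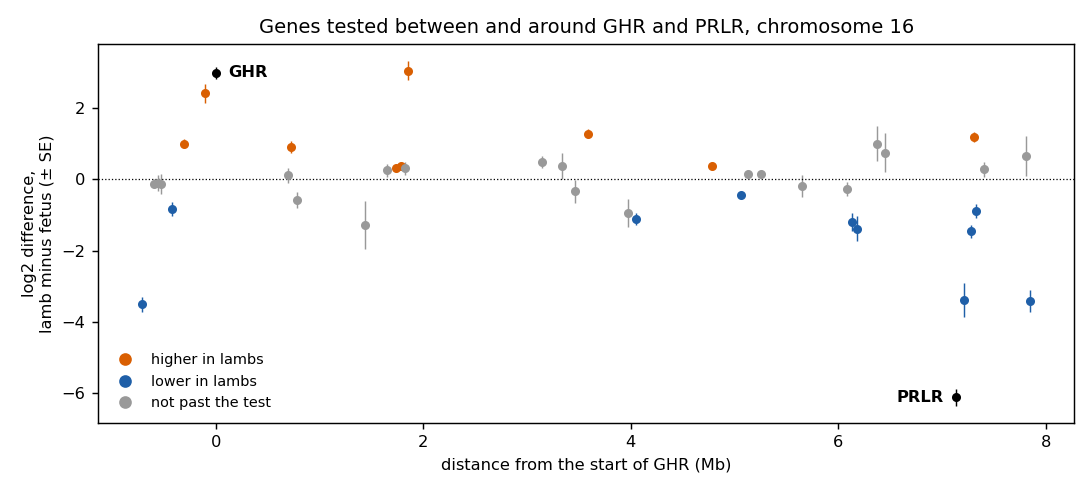
Log2 difference, lamb minus fetus (± SE), of each tested gene between and around GHR and PRLR against its distance from the start of GHR on chromosome 16 (Mb, Oar v3.1), coloured by edgeR's call. GHR and PRLR are the labelled black points at 2.98 and -6.11; the 25 tested genes between them lie from -1.38 to 3.03.

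The genes whose pattern over the 6 libraries was most like that of a receptor were found by the root mean square difference of centred log2 CPM, over 9438 genes with a mean of at least 5 CPM in a stage. This measure uses the stage difference that chose the receptors and is a description. Closest to PRLR were COX7A1, a cytochrome c oxidase subunit, at 0.392, CEACAM16 at 0.414, CAPN11, a calpain protease, at 0.426, MB, the oxygen-binding protein myoglobin, at 0.537 and KCNAB3, a potassium channel subunit, at 0.552. COX7A1 had 3.11, 3.01 and 2.45 CPM in lambs, against 177, 264 and 162 CPM in fetuses. Closest to LHR were COX7A1 at 0.502, CEACAM16 at 0.577, H-FABP, a fatty acid binding protein, at 0.584, the keratin KRT15 at 0.587 and PRLR itself at 0.629. Closest to GHR were HSPA12A, a distant heat shock protein relative, at 0.0918 and CDH13, a cadherin that binds adiponectin, at 0.163. TSC22D3, a glucocorticoid-induced gene, at 0.165, ANXA1 at 0.171 and GFPT2 at 0.177 followed. Distances are not compared between receptors, since PRLR had at most 13 and LHR at most 5 counts in a lamb library. Counting error adds to the distance at such counts. The same holds for CEACAM16, CAPN11, MB and KRT15, which averaged 0.201, 0.184, 0.0836 and 0.201 CPM in lambs.

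KRT15 also belongs to a list of 11 urothelium markers, which moved with stage. Of these 10 were found and 9 tested. All 9 fell in lambs by edgeR's test, beside 22.7% of all genes, with a median log2 difference of -7.16. The 10 found summed to 0.700 to 0.934 CPM in lambs, against 189, 75.1 and 54.8 CPM in fetal libraries 1, 2 and 3. Among the fetal libraries the highest sum was 3.44 times the lowest. Of its defining markers, UPK3A had 0 counts in all 3 lambs, against 152, 58 and 40 counts in fetuses. Macrophage markers summed to 1129 to 1378 CPM in lambs, against 119 to 223 CPM in fetuses, and 8 of 9 tested rose, beside 22% of all genes. The 10 lymphocyte markers summed to 30.0 to 83.4 CPM in lambs, against 19.6 to 36.3 CPM in fetuses. Of the 7 tested 3 rose and 0 fell, beside 22% and 22.7% of all genes, a share of 42.9% called beside 44.7%. Endothelial markers summed to 1437 to 1554 CPM in lambs and 1426 to 1802 CPM in fetuses. Of the 6 tested 1 was higher and 3 were lower in lambs, beside 22% and 22.7% of all genes. The part of these cell types in the receptor differences was not tested.

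Markers of the tissues these hormones are best known for stood at far lower sums than the adipocyte markers. Gonad markers summed to 8.20 to 10.3 CPM in lambs and 7.34 to 8.19 CPM in fetuses, sums that did not overlap. None of the 4 tested passed at an adjusted p under 0.05 by edgeR's test, beside 44.7% of all genes that did. Adrenal markers summed to 41.2 to 54.3 CPM in lambs and 33.3 to 50.2 CPM in fetuses, with DBH at 0 counts in every library and STAR giving the largest share of the sum. Of the 5 adrenal markers tested 40% were called by edgeR's test, beside 44.7% of all genes. NR5A1, a regulator of steroid synthesis genes, rose by 2.00 ± 0.46 (adjusted p = 0.0101). It had few counts, 14, 17 and 16 in lambs and 3, 4 and 2 in fetuses. CHGA, a granule protein, fell by 1.24 ± 0.34 (adjusted p = 0.0197). Kidney markers summed to 3.06 to 6.10 CPM in lambs and 3.28 to 6.58 CPM in fetuses. Thyroid markers summed to 0.950 to 2.23 CPM in lambs and 1.62 to 2.80 CPM in fetuses. Smooth muscle markers were high in lamb library 2, at 1541 CPM, against 338 and 433 CPM in the other lambs and 693, 498 and 352 CPM in fetal libraries 1, 2 and 3. OXTR was highest among the lambs in library 2 too, but among the fetuses it was lowest in library 1, where the smooth muscle sum was highest. The part of smooth muscle in the OXTR values was not tested.

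**Figure D4:**
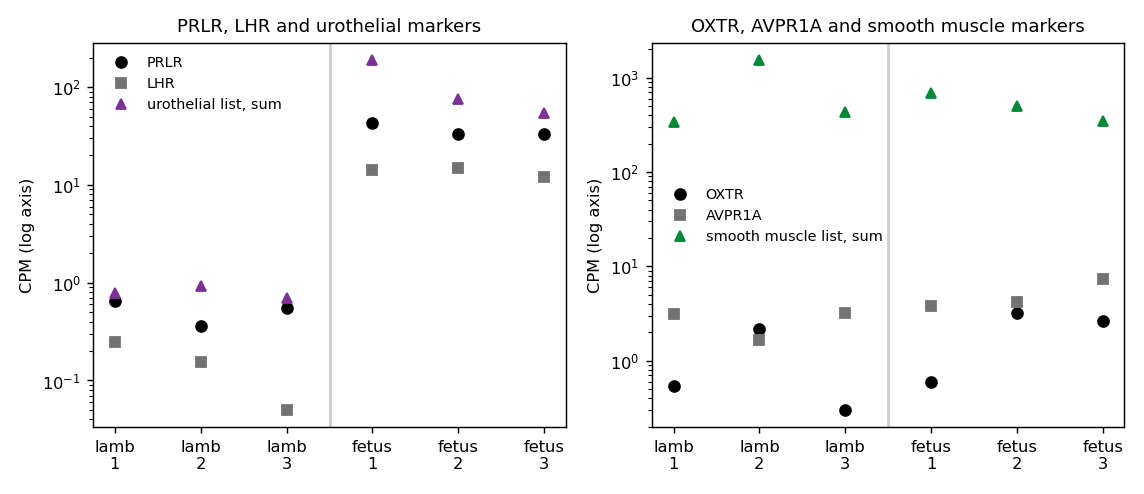
CPM (log axes) in each lamb and fetal library of PRLR and LHR beside the summed urothelium markers (left) and of OXTR and AVPR1A beside the summed smooth muscle markers (right). The urothelium sum lies under 1 CPM in every lamb and between 54.8 and 189 CPM in the fetuses, and the smooth muscle sum is highest in lamb library 2 at 1541 CPM.

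The steps below the receptors were followed through gene lists chosen with earlier results of these data known, each read against the 44.7% of genes called in all. Of the list of JAK2-STAT5 relay genes, 25 were tested by edgeR's quasi-likelihood test; 13 rose in lambs, 6 fell and 6 did not pass, which is 76% called, with a median of 0.41. Without fetal library 2 the calls fell to 7 higher and 5 lower. JAK2, the kinase that both receptors share, averaged 24.9 ± 3.68 CPM in lambs and 24.6 ± 2.69 CPM in fetuses, a difference of 0.02 ± 0.15 (adjusted p = 0.938) whose sign turned with upper quartile factors (-0.045), with a minimum of 5 CPM, and without fetal library 2 or lamb library 3.

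The STAT5 pair did not move together. STAT5A fell to 54.3, 33.1 and 73.8 CPM in lambs, against 158, 167 and 167 CPM in fetuses, a log2 difference of -1.61 ± 0.26 (adjusted p = 0.00233). STAT5B had 73.6, 55.4 and 66.5 CPM in lambs and 47.0, 49.4 and 50.5 CPM in fetuses, a difference of 0.41 ± 0.13 (adjusted p = 0.0338) that missed the threshold in 7 of 16 alternatives, among them each library left out except lamb library 2. As these neighbours on chromosome 11 are close copies, reads that fit both could be counted for either. The adaptors IRS1 and IRS2, which insulin signalling also uses, rose by 2.34 ± 0.19 (adjusted p = 0.000121) and 1.41 ± 0.21 (adjusted p = 0.00144). STAT3 rose by 0.96 ± 0.17 (adjusted p = 0.00333). IRS1 averaged 65.2 ± 11.2 CPM in lambs and 12.8 ± 2.20 CPM in fetuses.

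CISH and SOCS2, feedback genes that STAT5 induces, fell in lambs. CISH, a suppressor of cytokine signalling, had 7.11, 13.9 and 11.3 CPM in lambs, against 53.3, 40.0 and 57.4 CPM in fetuses, a log2 difference of -2.22 ± 0.26 (adjusted p = 0.000494). SOCS2, which limits growth hormone signalling, averaged 5.59 ± 1.54 CPM in lambs and 10.96 ± 2.19 CPM in fetuses and fell by 0.97 ± 0.25 (adjusted p = 0.0153), a call lost without fetal library 3 (adjusted p = 0.0580) and with library totals alone (-0.52, adjusted p = 0.174). SOCS3, another gene of that family, named after its value was seen, rose by 0.92 ± 0.26 (adjusted p = 0.0214). SH2B1, an adaptor that binds JAK2, fell by 1.22 ± 0.11 (adjusted p = 0.000171).

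**Figure D5:**
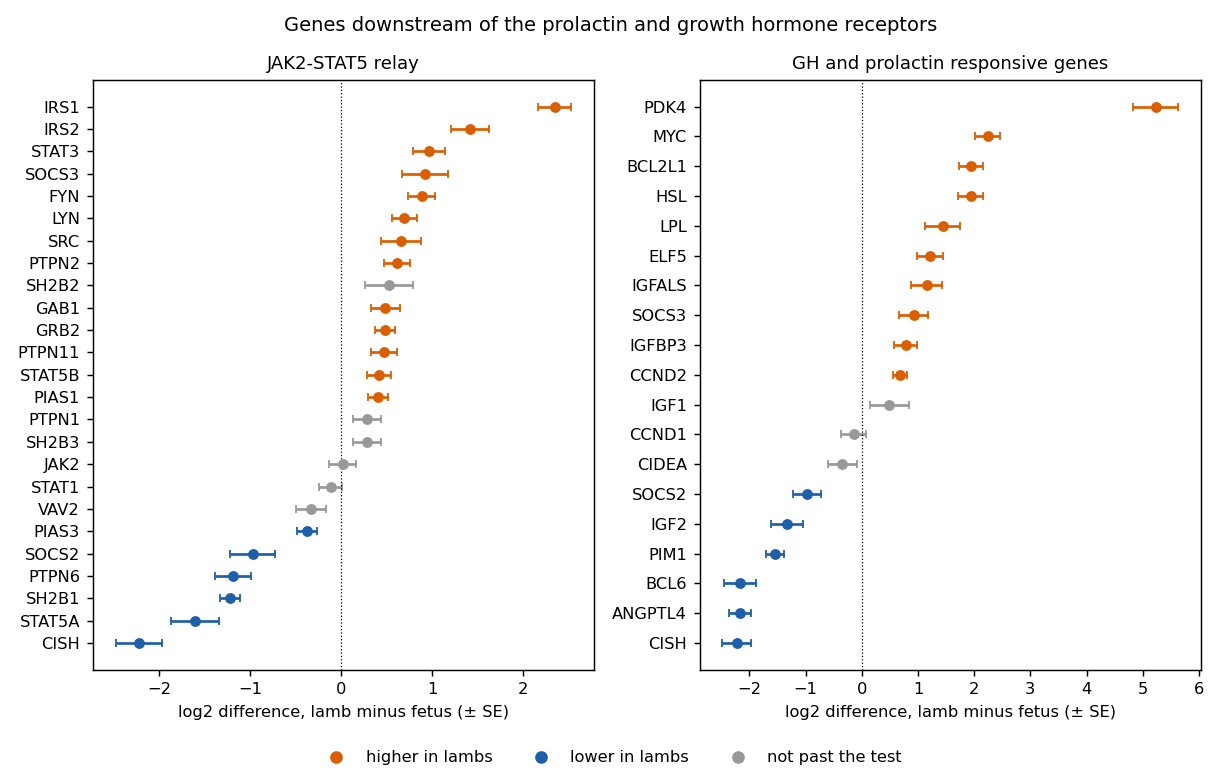
Log2 difference, lamb minus fetus (± SE), of each tested gene of the JAK2-STAT5 relay list and of the list of growth hormone and prolactin responsive genes, coloured by edgeR's call. In the relay list IRS1 lies farthest right at 2.34 and CISH farthest left at -2.22; in the responsive list PDK4 stands apart at 5.23.

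Of the list of growth hormone and prolactin responsive genes, 19 were tested; 10 rose, 6 fell and 3 did not pass, which is 84.2% called, with a median of 0.68. PDK4, the kinase that turns off pyruvate dehydrogenase in fasting, averaged 4096 ± 556 CPM in lambs and 109 ± 53.4 CPM in fetuses, a difference of 5.23 ± 0.41 (adjusted p = 0.000116). MYC rose by 2.24 ± 0.22 and the survival gene BCL2L1 by 1.94 ± 0.22. ANGPTL4, an inhibitor of lipoprotein lipase, fell by 2.17 ± 0.20, and BCL6, a repressor that growth hormone lowers in mouse liver, fell by 2.16 ± 0.28. These 4 passed the same test.

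The insulin-like growth factor genes of that list other than IGF1 are named after their values were seen. IGF1, the main mediator of growth hormone on growth, averaged 8.22 ± 2.60 CPM in lambs and 5.84 ± 2.497 CPM in fetuses, a difference of 0.49 ± 0.35 that did not pass (adjusted p = 0.289). IGF2 fell by 1.33 ± 0.28 (adjusted p = 0.00696). The carriers IGFBP3 and IGFALS rose by 0.78 ± 0.20 (adjusted p = 0.0164) and 1.16 ± 0.27 (adjusted p = 0.0113).

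The Gs and cyclic AMP relay, which LHR, FSHR and TSHR use, had 27 genes tested, of which 7 rose, 8 fell and 12 did not pass (55.6% called, median -0.01). With library totals alone, 12 rose and 3 fell. Lower in lambs were ADCY6, an adenylyl cyclase, at 87.3 ± 44.5 CPM in lambs and 405 ± 50.3 CPM in fetuses (-2.22 ± 0.34, adjusted p = 0.00174), and PRKAR2B, the kinase regulatory subunit abundant in fat, at 214 ± 45.7 CPM in lambs and 889 ± 88.6 CPM in fetuses (-2.05 ± 0.19, adjusted p = 0.000205). The catalytic subunit PRKACA fell by 1.496 ± 0.18. GRK5, a receptor kinase, rose by 1.12 ± 0.15, and the transcription factor CREM by 1.03 ± 0.32 (adjusted p = 0.0313), a call lost without any 1 of the fetal libraries or without lamb library 2. ADCY7 rose by 0.96 ± 0.26 (adjusted p = 0.0185), a call lost without fetal library 2, lamb library 1 or lamb library 2. GNAS, the Gs protein itself, fell by 0.41 ± 0.14 (adjusted p = 0.0465), a direction that flipped to 0.061 with library totals alone, and the call was lost without any 1 of the 6 libraries.

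The Gq and phospholipase C relay, which OXTR and AVPR1A use, had 21 genes tested, of which 4 rose, 2 fell and 15 did not pass. That is 28.6% called, with a median of 0.11, and with library totals alone 11 rose and 1 fell. PLCB1, a phospholipase C, averaged 14.8 ± 2.25 CPM in lambs and 72.9 ± 8.42 CPM in fetuses and fell by 2.30 ± 0.15 (adjusted p = 7.22e-05). RGS4, which ends Gq signalling, fell by 1.23 ± 0.37 (adjusted p = 0.0306), a call lost without any 1 of fetal libraries 1 and 2 and lamb libraries 1 and 3, and with library totals alone (adjusted p = 0.127). PRKCA rose by 1.04 ± 0.14, CAMK2D by 1.02 ± 0.11 and the calcium channel ITPR2 by 0.71 ± 0.14. GNAQ had a difference of -0.24 ± 0.23 (adjusted p = 0.429). Without fetal library 1 or 2 the list had 4 calls.

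The genes of the hormones themselves had 28 counts at most in any library. Of 15 named, 10 were found and none passed the filter. PRL, the prolactin gene, had 2, 9 and 1 counts in lambs and 1, 16 and 0 counts in fetuses. GH1, the growth hormone gene, had 1, 0 and 0 counts in lambs and 1, 28 and 0 counts in fetuses. POMC, the precursor of corticotropin, had 26, 14 and 8 counts in lambs and 7, 8 and 3 counts in fetuses, while CGA and FSHB had 0 counts in every library.

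Among kindred and accessory receptors, 7 of 18 found were tested; 1 rose, 3 fell and 3 did not pass, which is 57.1% called, with a median of -0.95. With library totals alone, 3 rose and 1 fell. IL6R, the interleukin-6 receptor of the same cytokine receptor family, rose by 2.80 ± 0.34 (adjusted p = 0.000641), to 34.8 ± 16.5 CPM in lambs, against 4.98 ± 0.791 CPM in fetuses. LGR4, a relative of the glycoprotein hormone receptors, fell by 1.503 ± 0.27 (adjusted p = 0.00343). LNPEP, the aminopeptidase that degrades oxytocin and vasopressin, fell by 1.24 ± 0.34 (adjusted p = 0.0211), and RXFP2, a relaxin family receptor, by 1.03 ± 0.28 (adjusted p = 0.0190). The LNPEP call was lost without fetal library 1, fetal library 3 or lamb library 3, and the RXFP2 call without fetal library 2, fetal library 3 or lamb library 3. With library totals alone both were lost, with adjusted p values of 0.0765 for LNPEP and 0.130 for RXFP2. Without lamb library 3 the list had 2 calls. MRAP, the accessory protein that brings MC2R to the cell surface, had 0 counts in every library. Its mean RPKM of 1.29 in lambs and 1.72 in fetuses cannot be traced to the counts, as for TSHR.

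Steroid synthesis genes, targets of LHR and MC2R in gonad and adrenal, had 10 tested, of which 2 rose, 3 fell and 5 did not pass, which is 50% called, with a median of 0.18. With library totals alone, 4 rose and 1 fell. SCARB1, which takes up cholesterol from lipoproteins, fell to 47.1 ± 5.20 CPM in lambs, against 161 ± 9.65 CPM in fetuses (-1.77 ± 0.13, adjusted p = 0.000102). SOAT1, which esterifies cholesterol, rose by 1.00 ± 0.19. HSD17B1, an enzyme of oestradiol synthesis, fell by 1.40 ± 0.36, a call lost without fetal library 1 (adjusted p = 0.0660). FDXR, which feeds electrons to mitochondrial steroid enzymes, fell by 0.77 ± 0.20, a call lost without fetal library 2 (adjusted p = 0.0584). With library totals alone both calls were lost, at -0.92 for HSD17B1 (adjusted p = 0.0897) and -0.28 for FDXR (adjusted p = 0.267). STAR, which carries cholesterol into mitochondria, averaged 34.9 ± 8.22 CPM in lambs and 22.8 ± 6.53 CPM in fetuses (0.61 ± 0.24, adjusted p = 0.0702) and did not pass, although its adjusted p was 0.0245 when fetal library 2 was left out and 0.0463 when lamb library 3 was.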

How the data were processed

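Per the labels' protocols, 5 µg of total RNA went into each of the 6 libraries (3 per stage), sequenced together on 1 flowcell as single-end 50 bp reads, about 33.2 M per library on average. Reads were mapped to Ensembl gene models of Oar v3.1 in CLC Genomics Workbench 7.0 and compared with edgeR, per the submitters' processing notes and design text. The sources used here do not give strand use or the handling of multiply placed reads. The authors deposited whole-number counts per gene and library, and mean RPKM per stage, used here for description only; 12 per-library RPKM columns were not used.

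Counts were analysed with edgeR 4.0.16 (filterByExpr, TMM, quasi-likelihood F test, no covariates, Benjamini-Hochberg over all genes tested, threshold 0.05) in R 4.3.3, and the code was tested on simulated data. SE is the log2 difference over the root of F. The 16 alternatives included DESeq2 1.42.0 and limma 3.58.1. The 3 called genes with the largest change in each direction were named per list, at 1 CPM or more, with others fixed by name. Receptors and the 17 lists were chosen with earlier results of these data known. RefSeq symbols (ARS-UI_Ramb_v3.0) served for names only and matched 7 of the 8 receptor names, all but PRLR. LHR was matched as LHCGR, and no sequence was used.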

Additional observations from a re-analysis of the deposited data

Results flagged for a closer look

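TSHR had a mean RPKM of 12.1 in lambs with 1 count and of 6.47 in fetuses with 0 counts, a signal in a column outside the count comparison that the counts do not hold. GH1 had 28 counts in fetal library 2, with at most 1 in any other library, and PRL had 16 there, with at most 9 elsewhere; both hormone genes lay below the filter on low counts and entered no comparison, and both signals were above 3 counts.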

How the results depend on the processing

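PRLR, LHR, GHR, OXTR and AVPR1A kept their direction under every alternative that gave a value; OXTR and AVPR1A had none with a minimum of 5 CPM. Scaling by library totals alone shifted the median of all genes to 0.46 and gave -5.64 for PRLR and 3.45 for GHR. It gave 12 Gq relay calls (6 in the main analysis) and turned GNAS to 0.061 and GNAQ to 0.22. JAK2 turned to -0.045 with upper quartile factors and -0.024 with a minimum of 5 CPM, which also left 3 steroidogenesis calls. Leaving out each library in turn gave JAK2 from -0.11 to 0.11. It gave 12 to 17 calls in the JAK2-STAT5 relay, 4 to 9 in the Gq relay and 2 to 5 among kindred receptors. The cause of these moves was not tested. Deviations of same-numbered samples correlated at 0.00732, -0.11 and 0.0501, inside the range of -0.143 to 0.14 of differently numbered samples. They gave no sign of pairing, which 3 animals per stage cannot exclude. With the number as a block the JAK2-STAT5 relay had 12 calls, not 19, and all genes 5353, not 6095. The calls of STAT5B, GNAS and RXFP2 were among those lost. Receptors under 10 counts are limited by depth.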

Other observations

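OXTR, whose libraries spread the most within each stage, was set beside the other genes by the same measure of likeness after its values were seen. Its closest genes over 6 libraries were MX2 at 0.430, DDX58 at 0.684, IFIT3 at 0.692, MX1 at 0.694 and ISG17 at 0.695, all of them interferon-induced genes. MX2, an antiviral GTPase, had 4.94, 13.3 and 2.30 CPM in lambs, against 7.00, 14.0 and 19.7 CPM in fetuses. Lamb library 2 was the high lamb and fetal library 1 the low fetus for MX2 as for OXTR, and none of the 5 genes passed edgeR's test between the stages.

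LEPR, the leptin receptor and a relative of PRLR and GHR that is named after its counts were seen, had 7, 5 and 1 counts in lambs, against 52, 10 and 4 counts in fetuses, with fetal library 1 apart from the rest.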
